A study of Mus musculus with 8 samples.

Results

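Expression of 45 genes of ribosome biogenesis and the nucleolus was followed across 8 RNA sequencing libraries labelled as C2C12, an immortalised mouse myoblast line of wild-type genotype. The genes were chosen by name, and each of the 45 has 1 row in both deposited tables, which list 52139 and 52338 genes. The first table holds 1 library of cells given DMSO, the solvent control, and 1 of cells given ginseng berries concentrate (GBC), here called the pair. The other, here called the Re table, holds 3 libraries of cells given DMSO and 3 of cells given ginsenoside Re, a ginseng saponin. Doses and times are not given in the labels, and nothing there says that replicates came from separate cultures, so p-values measure only the spread between these libraries, which may be technical. Values are TPM, transcript levels scaled for gene length and to each library's total, with the read depth unknown. The listed rows summed to 403442 TPM for DMSO and 479938 TPM for GBC in the pair, and to 642180 to 743269 TPM in the Re table, each under the 1000000 of a complete list. The study asked what the concentrate and the saponin do to gene expression in these cells.

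The libraries of the Re table held several myoblast transcripts, with Myod1 at 9.95 to 13.6 TPM, Myf5 at 30.2 to 34.2 TPM and Des at 115 to 127 TPM. Pax7 and Myog, of the same list, were at most 0.13 and 0.30 TPM there. In both libraries of the pair Myod1, Myf5 and Cdh15 were listed at 0 and the 8 myoblast markers summed to 1.98 and 1.67 TPM, against 202 to 222 TPM in the Re table, so those libraries go against their label. Fibroblast and mesenchymal markers summed to 153 TPM in the DMSO and 308 TPM in the GBC library of the pair. In the Re table they summed to 209 to 273 TPM. Col1a2 gave most of these sums, at 112 and 229 TPM in the pair and 191 to 250 TPM in the Re table. Col1a1 was at 10.9 and 46.6 TPM in the pair, while Dcn, Lum and Postn were at most 0.60 TPM there. Thy1 stood at 23.8 and 22.1 TPM in the pair and at most at 0.08 TPM in the Re table. Myotube markers summed to 0.60 and 0.23 TPM in the pair and 25.6 to 35.6 TPM in the Re table, where Acta1 gave most of it. Endothelial, macrophage and epithelial lists each summed to at most 2.80 TPM in any library. Transcripts encoded in the mitochondrion took 16.8% (DMSO) and 19.2% (GBC) of listed TPM in the pair, and 14.4% to 18.1% in the DMSO and 13.6% to 16.9% in the Re libraries of the Re table. The part of these differences in the results below was not tested. In bulk RNA, fewer cells of a type and less RNA per cell cannot be told apart.

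Ribosomes are built in the nucleolus. RNA polymerase I transcribes the ribosomal DNA into a long precursor, small nucleolar RNAs guide its methylation and pseudouridylation, and a large set of assembly factors folds and cuts it into the RNAs of the small and large subunits. The genes that encode these factors are a classic target set of the transcription factor MYC, and growing cells such as dividing myoblasts depend on them, while resting muscle fibres make fewer new ribosomes.

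Of the 45 genes, 39 matched the RefSeq promoter table of build GRCm38.p6, which covers 250 bases before to 50 bases after each start. The names without an entry are Bop1, Fbl, Nol6, Npm1, Rrp12 and Rrs1. The MYC-type E-box CACGTG, a palindrome that reads the same on both strands, occurred in 7 of the 39 genes (17.9%). The share was 12.03% of 8973 genes tested in the Re table that have a window, and 8.09% of all 27025 genes with one. Counted by window, it was 14.6% of 48 for the set, 10.1% of 11462 for genes tested and 7.15% of all 32851. These 7 stretches are shown because MYC binding at such boxes is the textbook route to this gene set, with the box in capitals and up to 12 bases on either side.
Ltv1: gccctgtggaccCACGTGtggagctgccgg
Nop2: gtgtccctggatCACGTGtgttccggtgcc
Pes1: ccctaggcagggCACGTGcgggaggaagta
Tsr1: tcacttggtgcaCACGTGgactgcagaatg
Utp20: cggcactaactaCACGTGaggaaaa
Utp4: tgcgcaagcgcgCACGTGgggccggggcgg
Wdr43: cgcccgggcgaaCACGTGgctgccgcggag
The first base of the box lay -60 bases from the start in Nop2 and, counted from 1 at the first transcribed base, at 3 in Pes1, 16 in Utp4, 18 in Wdr43, 25 in Tsr1, 29 in Ltv1 and 38 in Utp20. The stretches come from chr10:13193092-13193121, minus strand (Ltv1), chr6:125131811-125131840, plus strand (Nop2), chr11:3963965-3963994, plus strand (Pes1), chr11:74898092-74898121, plus strand (Tsr1), chr10:88826765-88826789, minus strand (Utp20), chr8:106893643-106893672, plus strand (Utp4) and chr17:71616220-71616249, plus strand (Wdr43). A match is a description of the letters in the window and not a bound site.

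Several of these genes are also hosts of small nucleolar RNAs, which are processed out of introns of the host transcript. In the GENCODE M21 annotation, 7 of the 45 (15.6%) carry at least 1 small nucleolar RNA gene on their own strand, against 1.99% of 10880 protein-coding genes tested. The hosts are Ncl, Gnl3, Nop56, Nop58, Dkc1, Wdr43 and Tsr1. The following 4 guide RNAs of the box C/D class lie inside Nop56, Nop58, Ncl and Gnl3 in that order. They are shown because the proteins Fbl, Nop56 and Nop58 assemble on RNAs of this class. Snord57, Snord70 and Snord19, inside Nop56, Nop58 and Gnl3, hold no exact TGATGA and are not shown. Capitals mark the first TGATGA (box C) and the last CTGA (box D).
Snord110: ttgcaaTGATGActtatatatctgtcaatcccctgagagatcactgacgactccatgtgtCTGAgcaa
Snord11: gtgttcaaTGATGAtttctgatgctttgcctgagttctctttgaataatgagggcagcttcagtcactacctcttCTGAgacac
Snord82: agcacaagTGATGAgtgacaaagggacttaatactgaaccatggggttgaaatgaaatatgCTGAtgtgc
Snord69: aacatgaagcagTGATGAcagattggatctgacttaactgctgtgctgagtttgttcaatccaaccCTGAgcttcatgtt
Of the 21 hosted genes, 20 are listed in both tables, and each of the 20 was at 0 in all 8 libraries, so only the host transcripts are described below.

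The 45 genes spanned a wide range of levels in the Re table, where the median gene had a 6-library mean of 41.5 TPM. Npm1 (ENSMUSG00000057113), which encodes nucleophosmin, an abundant chaperone of the outer nucleolar layer, was the highest with 1246, 1233 and 1306 TPM in the DMSO libraries and 1289.6, 1369.7 and 1421 TPM in the Re libraries. Npm1 has many processed pseudogenes in the genome, between which reads can be shared, so its level is uncertain. It alone held 30.4% to 32.7% of the summed TPM of the 45 genes in these libraries. Ncl (ENSMUSG00000026234), nucleolin, an RNA-binding protein of the same compartment, came next with 367, 422 and 397 TPM in the DMSO libraries and 339, 368 and 429 TPM in the Re libraries. At the other end was Ddx51 (ENSMUSG00000029504), a helicase of large subunit maturation, with 14.01, 6.10 and 8.54 TPM in the DMSO libraries and 9.66, 4.77 and 6.02 TPM in the Re libraries. Together the 45 genes made 0.572% to 0.601% of listed TPM in the DMSO libraries and 0.574% to 0.604% in the Re libraries, so the groups overlapped. In the pair the share was 0.326% in DMSO and 0.371% in GBC.

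**Figure D1:**
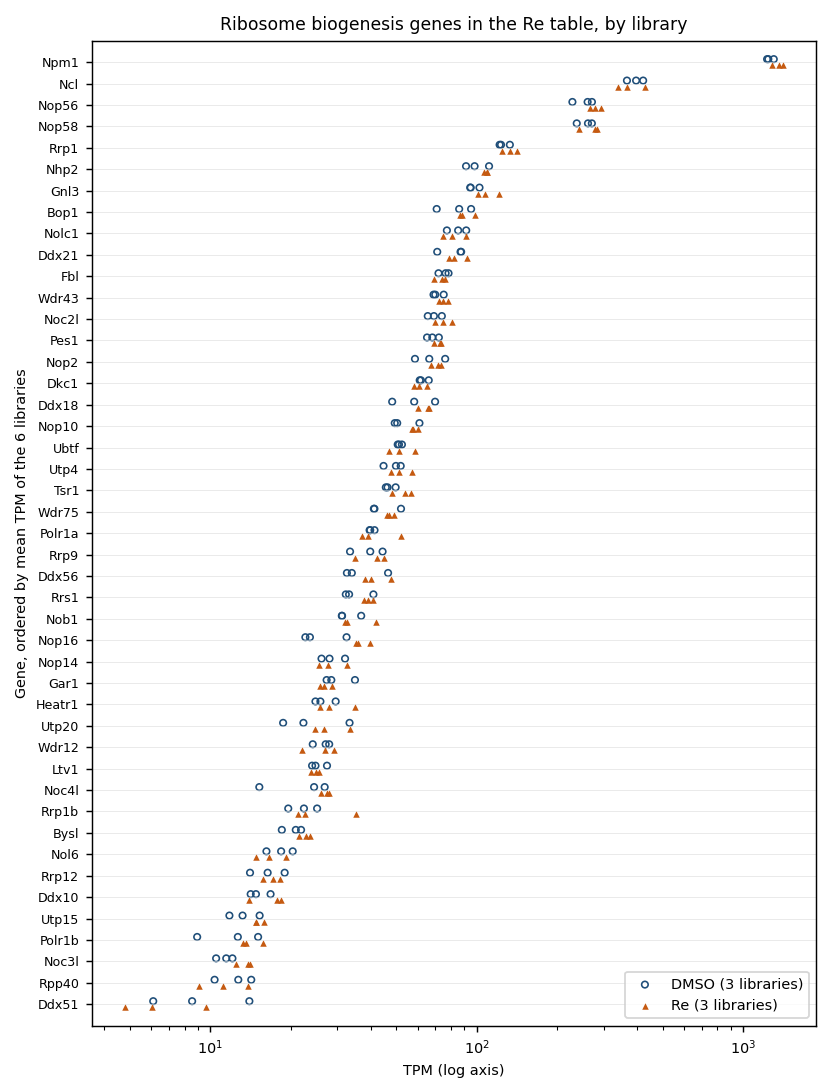
TPM (log axis) of the 45 genes in the 6 libraries of the Re table, ordered by mean; open circles are the 3 DMSO libraries and triangles the 3 Re libraries. Npm1 stands highest at 1233 to 1421 TPM and Ddx51 lowest at 4.77 to 14.01 TPM, and for nearly all genes circles and triangles intermingle.

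No gene of the set was called between Re and DMSO: 0 of 45 had an adjusted p under 0.05 in limma, as for 0 of 11967 genes tested (0%). At an unadjusted p under 0.05 there was 1 of the 45, Nop16, where 6.23% of all genes tested stood. Without DMSO replicate 1 it was 8 of the 45, against 13.8% of all genes. Dropping a single library gave at most 7 calls among all genes, reached without Re replicate 3, and 0 among the 45. The mean was higher in Re for 34 of the 45 genes, against 77.5% of all genes, and the median difference on the log2(TPM + 1) scale was 0.09 against 0.11 over all genes. With 1 library dropped the median ran from 0.04 (without Re replicate 3) to 0.14 (without DMSO replicate 1), against 0.05 to 0.15 over all genes. After median-of-ratios scaling, which took the median of all genes to 0.00, 19 genes were higher and 26 lower with a median of -0.02. The half-width of a gene's confidence interval had a median of 0.26, and for 37 of the 45 genes the interval lay within 0.5 of 0. The exceptions were Polr1b, Utp20, Noc4l, Nop16, Rrp1b, Ddx51, Ddx56 and Rpp40.

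Nop16 (ENSMUSG00000025869), a factor of the precursor of the large subunit, had the smallest p of the set. It stood at 32.5, 22.7 and 23.6 TPM in the DMSO libraries and 35.4, 35.7 and 39.9 TPM in the Re libraries. Each Re value exceeded the highest DMSO value, and DMSO replicate 1 was well above the other 2 controls. The mean was 26.3 ± 5.37 TPM (SD, n = 3) with DMSO and 37.02 ± 2.54 TPM (SD, n = 3) with Re. The difference was 0.49 (95% confidence interval 0.17 to 0.82), with an adjusted p of 0.687 in limma, and 0.38 after scaling. Leaving out 1 library at a time kept it between 0.40 and 0.65, with adjusted p from 0.247 to 0.900.

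Noc3l (ENSMUSG00000024999), which accompanies large subunit precursors through the nucleus, was the only other gene without overlap, at 12.1, 10.5 and 11.5 TPM in the DMSO libraries and 12.4, 13.8 and 14.1 TPM in the Re libraries. Its difference was 0.23 (95% confidence interval -0.02 to 0.47), or 0.12 after scaling, and limma gave an adjusted p of 0.687. Such separation upward was seen in 13.7% of all genes tested and in 2 of the 45 here, and separation downward in 1.27% of all genes and 0 of the 45. After scaling Gar1 and Wdr12 had each Re value below the lowest control, while Nop16 and Noc3l kept theirs above; 4.96% and 5.2% of all genes then separated in these directions, so 2 and 2 of 45 lay near the background. With 1 library dropped, genes of the set without overlap numbered 3 to 22, where 21.7% to 37.2% of all genes had none. The count was 22 (37.2% of all genes) when DMSO replicate 1 was dropped and 12 (26.4%) when Re replicate 1 was.

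The 5 other large subunit factors had overlapping groups. Rrp1, a subunit precursor protein, was 0.08 higher in Re and its paralogue Rrp1b 0.20 higher, where Re replicate 3 with 35.1 TPM stood above the 5 other libraries at 19.6 to 25.2 TPM. Rrp1 was 4.04 to 6.28 times the level of Rrp1b in every library of the Re table. Noc2l and Nop2, the partner of Noc3l and a methyltransferase of large subunit RNA, differed by 0.11 and 0.09. Nop2 (ENSMUSG00000038279) was at 76.2, 58.7 and 66.4 TPM with DMSO and 71.7, 67.3 and 73.7 TPM with Re. Rrs1 (ENSMUSG00000061024), which helps to load the 5S ribonucleoprotein, was at 40.96, 32.3 and 33.2 TPM with DMSO and 40.7, 37.7 and 39.2 TPM with Re, with the groups overlapping and a difference of 0.15 (95% confidence interval -0.11 to 0.40). All 7 genes of this role had a higher mean in Re as deposited and 4 of 7 after scaling.

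The PeBoW complex of Pes1, Bop1 and Wdr12 acts on large subunit RNA processing. Pes1 (ENSMUSG00000020430) was at 72.1, 68.2 and 65.1 TPM with DMSO and 69.3, 73.4 and 72.6 TPM with Re. Bop1 (ENSMUSG00000022557) ranged more, at 95.3, 70.8 and 85.99 TPM with DMSO and 98.8, 86.95 and 87.96 TPM with Re. Wdr12 (ENSMUSG00000026019) was at 27.9, 24.2 and 27.1 TPM with DMSO and 22.1, 26.9 and 29.2 TPM with Re. Groups overlapped for each, the differences were 0.07, 0.13 and -0.02, and after scaling they were -0.05, 0.01 and -0.13. In each of the 8 libraries of both tables the order of levels was Bop1, Pes1, Wdr12. Bop1 was at 1.04 to 1.43 times the level of Pes1 in the Re table, and their ranges overlapped, while Wdr12 lay below both in all libraries.

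Transcripts for proteins of the box C/D particle, which carries out RNA 2'-O-methylation, did not separate the groups. Fbl (ENSMUSG00000046865), fibrillarin, the methyltransferase itself, was at 71.9, 76.5 and 78.4 TPM with DMSO and 73.8, 69.3 and 75.8 TPM with Re. Nop56 (ENSMUSG00000027405), a scaffold of the particle, was at 271, 229 and 261 TPM with DMSO and 267, 279 and 293 TPM with Re, and its Re values overlapped the upper controls. Nop58 (ENSMUSG00000026020), its partner, was at 238, 262 and 271 TPM with DMSO and 243, 283 and 279 TPM with Re. The differences were -0.05 (95% confidence interval -0.24 to 0.14) for Fbl, 0.14 (95% confidence interval -0.07 to 0.36) for Nop56 and 0.06 (95% confidence interval -0.16 to 0.28) for Nop58. Fbl was the lowest of the 3 in each of the 8 libraries. Nop56 was above Nop58 in 3 of the 6 libraries of the Re table, so these neighbours had no fixed order there.

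The box H/ACA particle converts uridine to pseudouridine and has a core of 4 proteins. Dkc1 (ENSMUSG00000031403), dyskerin, the enzyme, was at 61.1, 66.1 and 61.8 TPM with DMSO and 58.4, 60.8 and 65.4 TPM with Re. Gar1 (ENSMUSG00000028010) was at 34.9, 27.3 and 28.5 TPM with DMSO and 25.8, 26.6 and 28.6 TPM with Re, with 1 control library high and the remaining values close together. Nhp2 (ENSMUSG00000001056) was at 111, 91.3 and 98.2 TPM with DMSO and 109.5, 109 and 107 TPM with Re. Nop10 (ENSMUSG00000027133), the smallest of the 4 proteins, was at 60.99, 49.3 and 50.3 TPM with DMSO and 57.4, 57.9 and 60.3 TPM with Re. The 4 differences had unlike signs: Nhp2 and Nop10 differed by 0.12 and 0.13, Dkc1 by -0.03 and Gar1 by -0.15 (95% confidence interval -0.41 to 0.11). After scaling Gar1 differed by -0.26, with an unadjusted p of 0.0126 and an adjusted p of 0.963 in limma, so the direction was kept and no call was made. Across the 6 libraries Nhp2 was 1.38 to 1.88 times the level of Dkc1, and Dkc1 1.75 to 2.42 times that of Gar1. Dkc1 was above Nop10 in each of the 6 libraries, at 1.002 to 1.34 times its level, though their ranges overlapped. In the pair Dkc1 was below Nop10, at 0.307 times its level in DMSO and 0.441 times in GBC.

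**Figure D2:**
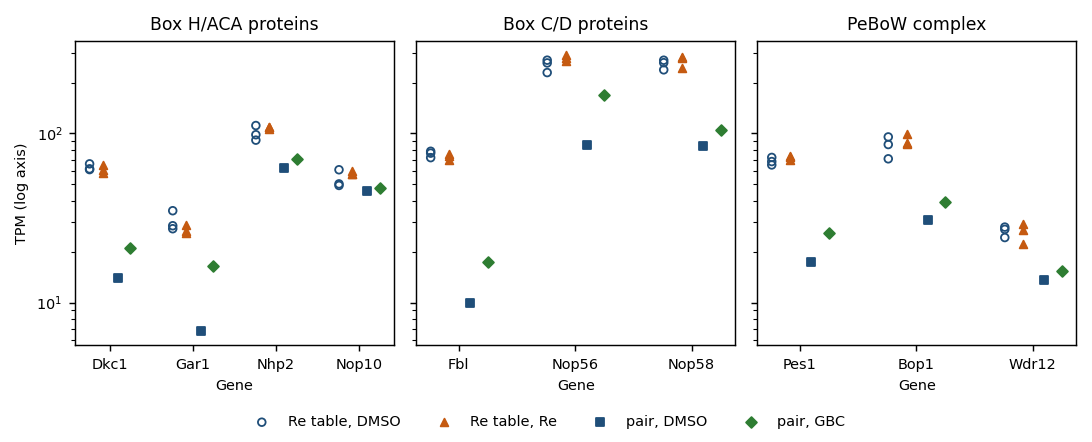
Transcript TPM (log axis) of the genes that encode the proteins of 3 complexes. Open circles and triangles are the DMSO and Re libraries of the Re table (3 each). Squares and diamonds are those of the pair, DMSO and GBC (1 library each). In the box H/ACA panel Gar1 is lowest in every library, and Dkc1 lies near Nop10 in the Re table and below it in both libraries of the pair.

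Of the RNA polymerase I genes, Polr1a (ENSMUSG00000049553), the largest subunit, was at 39.6, 39.8 and 41.4 TPM with DMSO and 39.03, 37.1 and 51.9 TPM with Re. The first 5 of these values lay within 37.1 to 41.4 TPM and Re replicate 3 stood apart. Polr1b (ENSMUSG00000027395), the other large catalytic subunit, was at 15.1, 8.92 and 12.7 TPM with DMSO and 15.8, 13.2 and 13.6 TPM with Re, with DMSO replicate 2 low. Ubtf (ENSMUSG00000020923), the factor UBF that opens ribosomal DNA, was at 51.1, 50.5 and 52.4 TPM with DMSO and 46.8, 51.3 and 58.6 TPM with Re. The differences were 0.07 (95% confidence interval -0.24 to 0.37), 0.22 (95% confidence interval -0.19 to 0.64) and 0.02 (95% confidence interval -0.21 to 0.25). Without DMSO replicate 2 or another single library, that of Polr1b ran from 0.03 to 0.38. Polr1a was 2.47 to 4.47 times the level of Polr1b in these libraries.

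The small subunit processome assembles on the growing transcript. Of its 11 genes 9 had a higher mean in Re, or 5 after scaling, with differences from -0.11 for Nol6 to 0.31 for Noc4l. Noc4l (ENSMUSG00000033294) was at 26.9, 15.3 and 24.5 TPM in the DMSO libraries and 27.9, 25.9 and 27.3 TPM in the Re libraries. DMSO replicate 2 was far below the 5 others, and without it the difference was 0.07. Utp15 (ENSMUSG00000041747), of the subcomplex that also binds ribosomal DNA, was at 15.3, 11.8 and 13.2 TPM in the DMSO libraries and 15.9, 14.8 and 14.9 TPM in the Re libraries, with overlap and a difference of 0.17 (95% confidence interval -0.10 to 0.44). Wdr75 (ENSMUSG00000025995) was at 52, 41.3 and 41.1 TPM with DMSO and 46.9, 48.8 and 46.01 TPM with Re. The remaining genes, with Wdr75, were Heatr1, Utp4, Utp20, Wdr43, Wdr75, Nop14, Rrp9 and Ddx10, which differed by 0.13, 0.09, 0.21, 0.07, 0.08, -0.01, 0.05 and 0.12.

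Late steps of the small subunit are carried out by Tsr1, Bysl, Ltv1, Nob1 and Rrp12. Tsr1 (ENSMUSG00000038335), a GTPase-like factor of the cytoplasmic precursor, was at 49.6, 46.3 and 45.6 TPM in the DMSO libraries and 53.6, 48.2 and 56.8 TPM in the Re libraries. Bysl (ENSMUSG00000023988), bystin, was at 21.9, 18.6 and 20.9 TPM in the DMSO libraries and 21.5, 22.96 and 23.7 TPM in the Re libraries. For both, the lowest Re value lay below the highest control, and the differences were 0.16 (95% confidence interval -0.06 to 0.38) and 0.15 (95% confidence interval -0.09 to 0.38). Nob1, the nuclease that makes the final cut of 18S RNA, differed by 0.09, Rrp12 by 0.05 and Ltv1 by -0.03. After scaling Nob1 and Rrp12 were on the other side of 0, at -0.02 and -0.06.

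Transcripts for nucleolar scaffold proteins went both ways. Gnl3 (ENSMUSG00000042354), the GTPase nucleostemin, was at 103, 94.98 and 94.6 TPM in the DMSO libraries and 101, 108 and 122 TPM in the Re libraries. Re replicate 1 lay within the controls, and the difference was 0.17 (95% confidence interval -0.04 to 0.39). Npm1 differed by 0.11 (95% confidence interval -0.09 to 0.31), but by -0.01 after scaling, Ncl by -0.07 (95% confidence interval -0.32 to 0.19) and Nolc1 by -0.04. Nolc1 (ENSMUSG00000015176), a chaperone of small nucleolar ribonucleoproteins, was at 85.2, 77.3 and 91.4 TPM with DMSO and 80.8, 74.6 and 91.5 TPM with Re, with the groups overlapping. Of the helicases Ddx18, Ddx21, Ddx51 and Ddx56, Ddx51 had the widest spread of the whole set, with a coefficient of variation of 42.4% in DMSO and 37.3% in Re. Its difference of -0.41 (95% confidence interval -1.12 to 0.30) had the broadest interval too. Ddx21 (ENSMUSG00000020075) was at 87.02, 71.1 and 87.5 TPM with DMSO and 78.6, 82.4 and 91.8 TPM with Re. Ddx18, Ddx21 and Ddx56 differed by 0.14, 0.04 and 0.16. Rpp40 (ENSMUSG00000021418), of the RNases P and MRP, was at 14.2, 12.7 and 10.4 TPM with DMSO and 11.2, 13.9 and 9.06 TPM with Re, a difference of -0.13. Adjusted p ran from 0.687 to 0.982 in limma over the 45 genes.

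**Figure D3:**
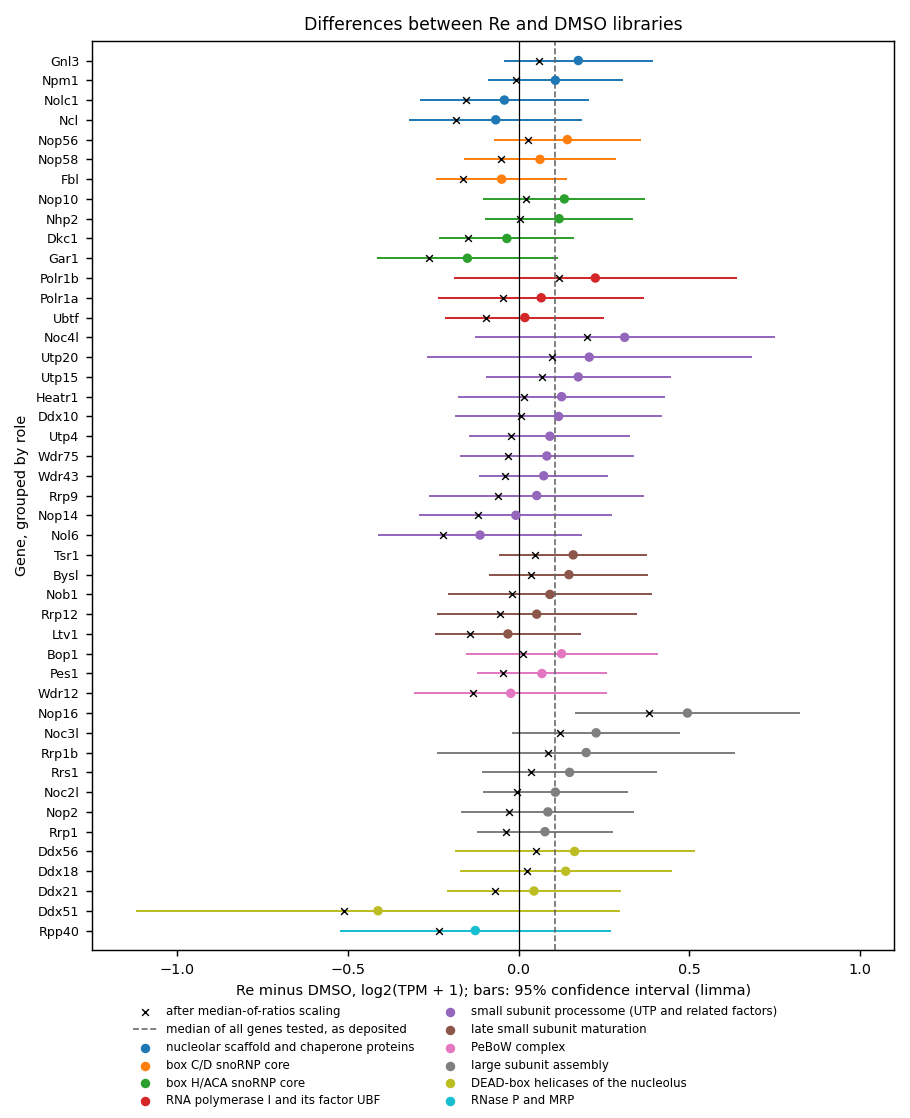
Re minus DMSO on the log2(TPM + 1) scale for the 45 genes, coloured by role; dots are values as deposited with 95% confidence intervals from limma, crosses the values after median-of-ratios scaling, and the dashed line the median of all genes. Only the interval of Nop16, from 0.17 to 0.82, excludes 0, and each cross lies to the left of its dot.

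Single libraries stood high or low for most of the set. DMSO replicate 2 was the lowest control for 29 of the 45 genes, 64.4%, against 60.2% of all genes tested, and Re replicate 3 was the highest Re library for 31, 68.9%, against 50.8% of all genes. Relative to the 6-library mean, the median gene of the set was 0.14 lower in DMSO replicate 2, where the median of all genes was 0.15 lower, and 0.13 higher in Re replicate 3, where all genes were 0.10 higher. The listed TPM also summed lowest in DMSO replicate 2 and highest in Re replicate 3, at 642180 and 743269. After scaling, the medians of the set in those libraries were 0.03 and 0.02 above the mean. In 5 genes, Ncl, Dkc1, Wdr43, Ddx10 and Ltv1, DMSO replicate 2 was instead the highest control. Within groups the coefficient of variation had a median of 9.86% in DMSO and 7.19% in Re, and the lowest value in DMSO was the 1.87% of Ubtf.

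**Figure D4:**
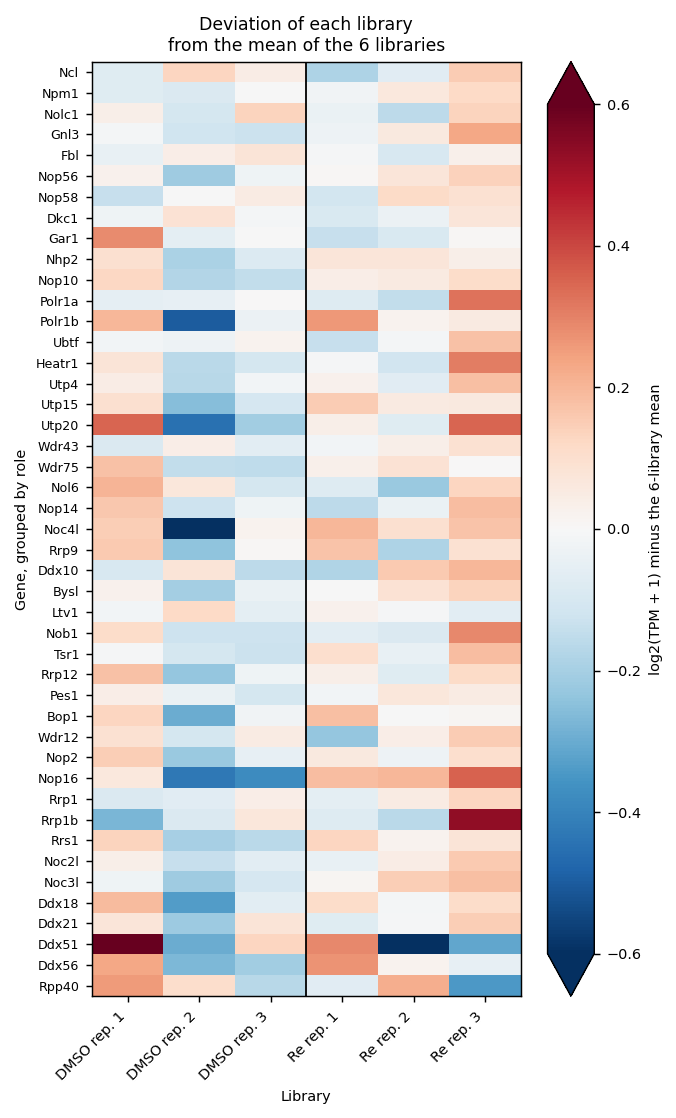
Deviation of each library from the 6-library mean on the log2(TPM + 1) scale for the 45 genes, grouped by role; red is above and blue below the mean, and the black line separates 3 DMSO from 3 Re libraries. The column of DMSO replicate 2 is mostly blue and that of Re replicate 3 mostly red, with a median of 0.14 below and 0.13 above the mean.

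A further 136 genes of the same pathway were counted, in 6 lists written from knowledge of the pathway. Of 134 tested, 0 passed the threshold in limma and 5 had an unadjusted p under 0.05. The mean was higher in Re for 113 (84.3%, against 77.5% of all genes) and lower for 21 of the 134. After scaling it was higher for 68 of 134, and the median as deposited was 0.11. Groups without overlap occurred in 16 of the genes with Re on top (11.9%, against 13.7% of all genes) and in 1 with DMSO on top, and the share at an unadjusted p under 0.05 was 3.73% against 6.23%. The 5 genes were Gtpbp4, Mrto4, Pop7, Rrp36 and Exosc2. Gtpbp4, a GTPase of large subunit precursors, was at 45.7 ± 1.30 TPM (SD, n = 3) with DMSO and 54.7 ± 2.27 TPM (SD, n = 3) with Re, a difference of 0.25. Mrto4, the placeholder of the ribosomal stalk protein, was at 69.6 ± 5.87 TPM (SD, n = 3) with DMSO and 82.1 ± 3.47 TPM (SD, n = 3) with Re, a difference of 0.24. Pop7, a subunit of RNases P and MRP like Rpp40, was at 11.3 ± 2.24 TPM (SD, n = 3) with DMSO and 15.6 ± 1.46 TPM (SD, n = 3) with Re, a difference of 0.44. Rrp36, of the small subunit processome, and Exosc2, of the RNA exosome that trims precursors, differed by 0.29 and 0.34, and limma gave each of the 5 the adjusted p 0.687.

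By list, 14 of 15 genes of the RNA polymerase I machinery had a higher mean in Re, with Taf1a, Sirt7 and Polr1g at 0.33, 0.23 and 0.22. For snoRNP assembly factors it was 10 of 11, with Tgs1, Shq1 and Ruvbl1 at 0.22, 0.21 and 0.15. Among small subunit factors 39 of 42 were higher, with Nol11 and Riok2 at 0.33 and 0.26. Large subunit factors were higher in 35 of 45, with Gnl3l at 0.28, and lower in 10, with Brix1 at -0.19. Exosome genes were higher in 11 of 13, with Exosc8 and Exosc5 at 0.26 and 0.20, and RNase P and MRP subunits in 4 of 8, with Rpp30 at 0.24 and Rpp14 at -0.15. Of all genes tested, 77.5% had a higher mean in Re. After median-of-ratios scaling the medians by list ran from -0.10 for RNase P and MRP to 0.04 for the RNA polymerase I machinery. No gene of these lists passed adjustment in limma.

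The pair has 1 library per group, so the differences between GBC and DMSO have no replicate check and no test. With the mean of both libraries at 5 TPM or more, 43 of the 45 genes entered, without Utp15 and Nop14, which stood at 3.05 and 6.87 TPM and 3.70 and 4.65 TPM in DMSO and GBC. A difference of at least 1 on the log2(TPM + 1) scale was found in 5 of the 43 upward and 0 downward, where 4.97% and 0.241% of 6639 genes lay past it in these directions. Any amount higher in GBC were 40 of the 43, against 88.9% of all genes. The median difference was 0.38 against 0.31 over all genes, and 0.02 against -0.06 after median-of-ratios scaling, when 23 of 43 were higher. The same scaling moved the genes past the rule, out of all genes, from 330 upward and 16 downward to 95 upward and 28 downward, or 1.44% and 0.425% of 6593. Below, differences of the pair are given as deposited unless scaling is named.

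Rrs1 showed the widest gap of the set, at 2.10 TPM in the DMSO library and 12.1 TPM in the GBC library, a difference of 2.08, or 1.77 after scaling. Ddx21, a helicase that links RNA polymerase I to the processing of its transcripts, was at 6.21 TPM in the DMSO library and 23.9 TPM in the GBC library, a difference of 1.79, or 1.44 after scaling. Nolc1 was at 14.1 TPM in the DMSO library and 40.3 TPM in the GBC library, a difference of 1.46, or 1.08. These 3 genes stayed past the size rule after scaling and after both libraries were brought to one sum, when 2.99% of all genes lay past it upward. Gar1 was at 6.76 TPM in the DMSO library and 16.5 TPM in the GBC library, a difference of 1.18, or 0.82 after scaling. Ncl was at 30.3 TPM in the DMSO library and 64.1 TPM in the GBC library, a difference of 1.06, or 0.68 after scaling, so that neither Gar1 nor Ncl was past the rule after it. Between the same libraries the fibroblast and mesenchymal markers, mostly Col1a2, summed to 153 and 308 TPM. Myc was at 12.8 and 20.2 TPM, and the part of either in these differences was not tested.

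The 100 bases before the start of these genes are shown, without Rrs1, because they were the ones past the size rule; capitals mark the ETS motif CCGGAAG, searched on both strands.
Ncl: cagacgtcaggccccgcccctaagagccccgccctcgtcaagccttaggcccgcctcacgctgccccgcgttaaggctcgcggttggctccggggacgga
Nolc1: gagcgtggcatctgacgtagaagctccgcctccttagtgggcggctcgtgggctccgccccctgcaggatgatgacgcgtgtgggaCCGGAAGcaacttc
Gar1: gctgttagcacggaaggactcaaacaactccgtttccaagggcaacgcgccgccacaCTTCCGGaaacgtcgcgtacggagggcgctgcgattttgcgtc
Ddx21: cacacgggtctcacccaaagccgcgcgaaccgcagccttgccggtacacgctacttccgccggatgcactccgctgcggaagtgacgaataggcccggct
The stretches are chr1:86359456-86359555, minus strand (Ncl), chr19:46075747-46075846, plus strand (Nolc1), chr3:129831397-129831496, minus strand (Gar1) and chr10:62602299-62602398, minus strand (Ddx21), in GRCm38.p6. The motif is read backwards in Gar1 and forwards in Nolc1, and neither Ncl nor Ddx21 holds it there. Over the whole window 11 of the 39 genes held it, 28.2%, against 21.8% of genes tested. None of the 4 genes holds the E-box in its window. The 7 genes with an E-box, shown above, differed between GBC and DMSO by 0.05 to 0.65, with a median of 0.38, and the 32 without by -0.70 to 1.79, with a median of 0.34. For Re the medians were 0.09 and 0.10.

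At the other end, Ddx51 was at 7.61 TPM in the DMSO library and 4.29 TPM in the GBC library, a difference of -0.70, and Rpp40 at 7.54 TPM in the DMSO library and 4.37 TPM in the GBC library, a difference of -0.67. After scaling they stood at -1.03 and -0.999, which put Ddx51 past the rule downward. Wdr75, of the early small subunit machinery, was at 32.1 and 31.1 TPM, a difference of -0.05. Nop2 and Nop10 were next, at 34.05 and 35.4 TPM and 45.4 and 47.5 TPM, with differences of 0.05 and 0.06. Against the median of 0.31 over all genes, each of these 5 stood low.

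**Figure D5:**
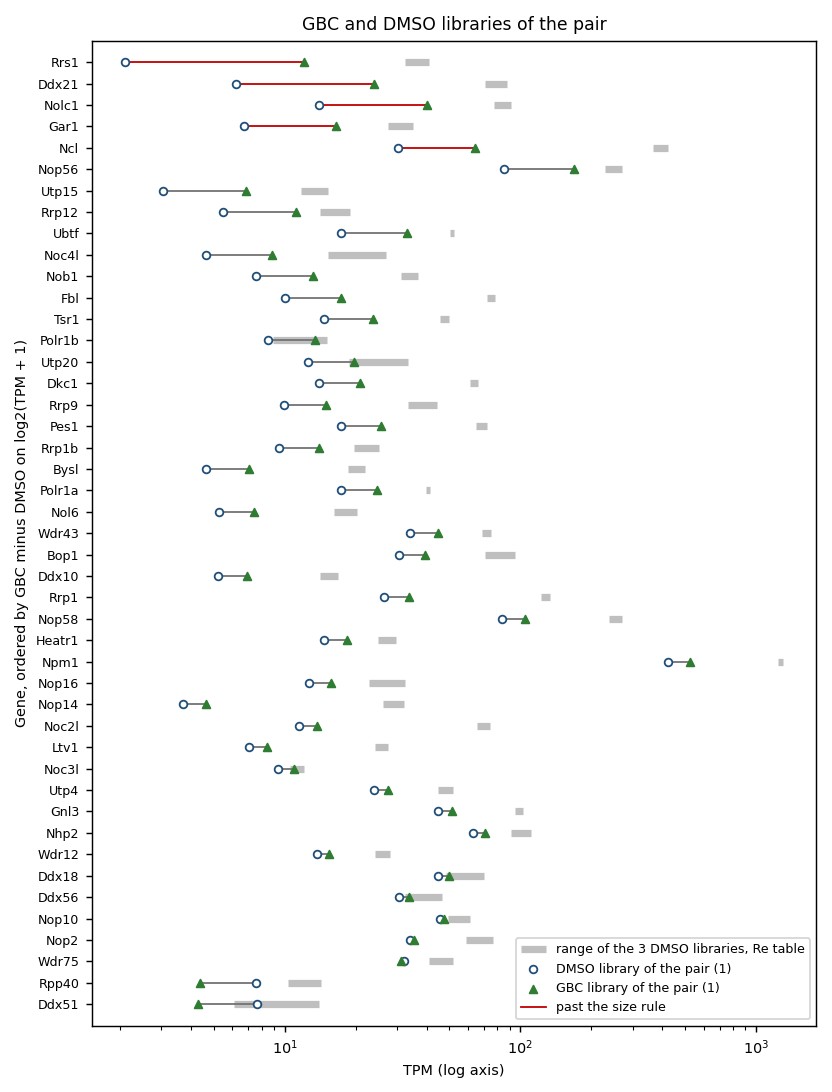
TPM (log axis) of the 45 genes in the DMSO (open circle) and GBC (triangle) libraries of the pair, ordered by their difference, with grey bars for the range of the 3 DMSO libraries of the Re table. Red lines mark Rrs1, Ddx21, Nolc1, Gar1 and Ncl, and most grey bars lie to the right of both symbols.

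Transcripts for partners within a complex differed by unlike amounts in the pair. In the box H/ACA core Dkc1 was at 13.96 and 20.96 TPM and Nhp2 at 62.7 and 70.95 TPM in DMSO and GBC, so differences ran from 0.06 for Nop10 through 0.18 for Nhp2 and 0.55 for Dkc1 to 1.18 for Gar1. The ratio of Nhp2 to Dkc1 was 4.49 in DMSO and 3.39 in GBC, outside the 1.38 to 1.88 of the Re table. In the box C/D core Fbl was at 10 and 17.3 TPM, Nop56 at 85.03 and 169.7 TPM and Nop58 at 83.8 and 104 TPM, with differences of 0.73, 0.99 and 0.31. The ratio of Nop56 to Nop58 was 1.02 in DMSO and 1.63 in GBC. Pes1 was at 17.4 and 25.6 TPM, Bop1 at 30.6 and 39.2 TPM and Wdr12 at 13.7 and 15.4 TPM, with differences of 0.54, 0.35 and 0.16.

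For RNA polymerase I, Polr1a was at 17.4 and 24.6 TPM, Polr1b at 8.47 and 13.5 TPM and Ubtf at 17.3 and 32.9 TPM, with differences of 0.48, 0.61 and 0.89. Npm1 was at 422 and 522 TPM, a difference of 0.31, the value of the median gene, and Gnl3 at 44.7 and 51.05 TPM, a difference of 0.19. The 5 late small subunit genes were 0.22 to 0.91 higher, with Rrp12 at the top and Ltv1 at the bottom. Tsr1 stood at 14.7 and 23.6 TPM and Bysl at 4.65 and 7.05 TPM. Among the 11 processome genes differences ran from -0.05 for Wdr75 to 0.96 for Utp15, with 0.80 for Noc4l at 4.63 and 8.81 TPM, 0.60 for Utp20 and 0.55 for Rrp9. Of the large subunit factors apart from Rrs1, Rrp1b was 0.51 higher and Nop16, first by p in the Re table, 0.28 higher, at 12.8 and 15.7 TPM. Noc3l stood at 9.36 and 10.9 TPM, 0.20 higher.

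Of the 136 other genes of the pathway, 118 reached a mean of 5 TPM in the pair, of which 109 were higher and 9 lower in GBC, with a median of 0.24. All genes at that level had a median of 0.31, with 88.9% higher, against 92.4% of the 118. Past the size rule were 7 upward (5.93%) and 0 downward, near the 4.97% of all genes upward. These are as deposited, and scaled values of the 7 were not computed. After scaling 1.44% of all genes were past the rule upward, and Gar1, at 1.18 as deposited, was at 0.82. Znhit6, an assembly factor of box C/D particles, was at 2.70 TPM in the DMSO library and 11.02 TPM in the GBC library, a difference of 1.70. Ddx47 and Bms1, a helicase and a GTPase of the small subunit processome, were at 4.01 and 13.3 TPM and at 5.10 and 13.8 TPM, with differences of 1.51 and 1.28. Tcof1, treacle, which brings UBF and RNA polymerase I to ribosomal DNA, was at 3.97 and 10.2 TPM, a difference of 1.17. Esf1 of the small subunit and Nmd3, the export adaptor of the large subunit, differed by 1.16 and 1.14. The last of the 7, named after its values were seen, was Dhx37, a helicase of the small subunit processome, at 4.93 and 11.9 TPM, a difference of 1.12. The 7 genes were at 2.70 to 5.25 TPM in the DMSO library and 10.2 to 13.8 TPM in the GBC library. Mybbp1a, Rbm28 and Mdn1 were 0.93, 0.87 and 0.90 higher, and Exosc1 and Pop5 0.68 and 0.40.

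The tables were normalised separately, so levels between them are set side by side only as a description. The DMSO library of the pair was below the lowest DMSO library of the Re table in 42 of 43 genes of the set, against 89.3% of 6366 genes, and the GBC library in 38 of 43, against 82.1%. With all libraries brought to one sum it was 33 and 32 of 43, against 65.4% and 61.7% of the genes. The mean of the Re-table controls over the pair's control had a median of 2.98 over the 45 genes as deposited. Over the 43 genes that reached 5 TPM in both tables the median was 2.96 against 2.33 for all such genes, and at one sum 1.74 against 1.37. The ratio was highest for Rrs1, at 16.9, and was 13.2 for Ddx21 and 13.1 for Ncl, while Nop10 had the lowest at 1.18. At one sum these 4 ratios were 9.91, 7.73, 7.72 and 0.692, so that of Nop10 turned below 1. As deposited, the 5 genes past the size rule had ratios of 4.47 to 16.9 and the 40 others 1.18 to 7.77. All 5 remained below the lowest control of the Re table in the GBC library, such as Ncl at 64.1 TPM against 367 TPM. The same DMSO library enters these ratios and the GBC differences, so the 2 are not independent.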

How the data were processed

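The authors deposited 2 tables of log2 values, log2(TPM + 1) per gene and library. Per the submitters' processing notes, STAR and RSEM were used and the genome builds GRCh38 and GRCm39 are named, without versions or settings. Libraries were made with a TruSeq kit from total RNA, per the labels' protocols. The deposited log2 values were turned back to TPM and rounded to 0.01 TPM. The read depth is unknown, so no interval from counting error is given.

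The 45 genes and all gene lists were chosen with earlier results of these data known. The 3 Re and 3 DMSO libraries of the Re table were compared with limma 3.58.1 in R 4.3.3 (trend, two-sided, pseudocount 1) over genes whose mean reached 1 TPM, with Benjamini-Hochberg adjustment over all of them and a threshold of 0.05, and the fit was tested on simulated data. A difference is on the log2(TPM + 1) scale, on which low genes show less than their full change. The pair allows no test; there a gene counted as past the size rule from a mean of 5 TPM and a difference of 1 upward. Median-of-ratios scaling divides each library by the median, over genes, of its ratios to the geometric mean of all libraries of its table. Values in every library are given for the 8 genes with the smallest p, those past the size rule, the 5 largest differences either way in the pair, and the members of the complexes compared. Up to 3 genes of each other list are named by the smallest p or the largest difference, and a few others after their values were seen. Alternatives were other pseudocounts, filters, scalings and limma settings, each library left out, and a block. Members not overlapping and members with a higher mean were added as results after seeing the data. Gene models (GENCODE M21) and promoter windows (RefSeq, GRCm38.p6) are of an older build than the GRCm39 of the notes and served only for names, hosted RNAs and the sequences shown. Python 3.11.15, numpy 2.4.6, pandas 2.3.3 and matplotlib 3.10.9 were used for the rest.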

Additional observations from a re-analysis of the deposited data

How the results depend on the processing

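Against 0 genes called between Re and DMSO in limma, leaving out 1 library gave 0 to 7: 4 when DMSO replicate 1 was dropped, 6 when it was replicate 2, and 3, 1 and 7 when Re replicate 1, 2 and 3 were, none of them among the 45. The other alternatives gave 0 calls. The replicate block also gave 0, with 810 genes at an unadjusted p under 0.05 against 745 without it. Nothing in the labels beyond the number pairs the DMSO and Re libraries. Deviations of same-numbered libraries correlated at 0.163, 0.077 and 0.017. Those of the other pairings ran from -0.172 to 0.094, the highest for DMSO replicate 2 with Re replicate 3. Whether the libraries were paired cannot be told from these values. No paired analysis was possible in the pair because its labels give 1 library per group. Of the 45 genes, 2 did not overlap between groups (15% of all genes), against 4 after median-of-ratios scaling (10.2%), 4 after quantile normalization (10.3%), 4 with libraries rescaled to one sum (11.3%), and 3 to 22 with 1 library left out (22, 3 and 4 when DMSO replicate 1, 2 or 3 was dropped, where 37.2%, 21.7% and 22.7% of all genes did not overlap, and 12, 4 and 5 when Re replicate 1, 2 or 3 was, where 26.4%, 22.3% and 24.5% did not). Those with a higher mean in Re went from 34 to 19 after median-of-ratios scaling and 20 after quantile normalization. In the pair, the 346 genes past the size rule became 522 at a mean of at least 1 TPM, 218 at a mean of at least 10 TPM, 123 after median-of-ratios scaling and 126 after quantile normalization. The 5 of the 45 past it became 3 with libraries rescaled to one sum. The median of 0.38 over the 43 genes at level became 0.0156 after median-of-ratios scaling and 0.0927 after quantile normalization. It was 0.19 with mitochondrially encoded genes left out and 0.15 at one sum, where all 45 genes reached the level. The cause was not tested. Differences of the 8 genes with the smallest p kept their direction and stayed uncalled without each library and after median-of-ratios scaling. Unknown depth limits what can be said of low genes.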

Other observations

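Myc, the transcription factor that drives many ribosome biogenesis genes, was at 38.0, 35.1 and 39.7 TPM in the DMSO libraries and 34.7, 32.2 and 48.2 TPM in the Re libraries. Its difference was 0.01 (95% confidence interval -0.34 to 0.36) with an adjusted p of 0.983 in limma. Re replicate 3 was the highest of the 6 libraries for Myc. The median of all genes was also 0.10 above the 6-library mean in that library, which had the highest listed sum, at 743269 TPM. In the pair Myc stood at 12.8 TPM for DMSO and 20.2 TPM for GBC, 0.62 higher, and its partner Max at 14.6 and 17.8 TPM, 0.28 higher. Of 9 genes of the MYC network tested between Re and DMSO, 0 were called in limma, with 0 at an unadjusted p under 0.05.

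Free ribosomal proteins Rpl5 and Rpl11 join the 5S RNA with the help of Rrs1, and this particle can hold back Mdm2 and so protect p53. In the Re table Rpl11 was at 841 ± 13.3 TPM (SD, n = 3) with DMSO and 896 ± 40.9 TPM (SD, n = 3) with Re. In the pair Rpl11 stood at 89.1 and 284 TPM, 1.66 higher with GBC, while Rpl5 stood at 406 and 449 TPM, 0.14 higher. Mdm2 was at 11.3 and 21.5 TPM and Trp53 at 27.6 and 49.7 TPM. In GBC 10 of the 11 genes of this list were higher, where 88.9% of all genes were. The p53 target Cdkn1a, at 22.4 and 17.2 TPM, was the only lower one. Zmat3, Bax, Sesn2 and Ccng1 of the same list were 0.77, 0.37, 0.37 and 0.15 higher. Of 11 genes of this list 0 were called between Re and DMSO in limma, and Ccng1 alone had an unadjusted p under 0.05, with 277 ± 16.6 TPM (SD, n = 3) with DMSO and 315 ± 6.28 TPM (SD, n = 3) with Re and an adjusted p of 0.687 in limma. Both lists were chosen with earlier results known.

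Of 15 proliferation genes 0 were called between Re and DMSO in limma, with 0 at an unadjusted p under 0.05, and 14 had a higher mean in Re, where 77.5% of all genes did. In the pair 3 of 15 were higher by at least 1, where 4.97% of all genes were: Mcm4, of the replicative helicase, at 15.4 and 34.1 TPM, Aurka, a mitotic kinase, at 11.5 and 25.6 TPM, and Rrm2, of ribonucleotide reductase, at 11.9 and 26.0 TPM in DMSO and GBC. Mki67 stood at 15.1 and 31.0 TPM, 0.99 higher, and Cdk1 at 86.1 and 82.8 TPM, a difference of -0.06. The median difference of the 15 genes in the pair was 0.21, against 0.31 over all genes. With 1 library per group these differences have no replicate check. They are as deposited, and scaled values of Mcm4, Aurka and Rrm2 were not computed. As deposited each of these 3 differed by less than Gar1, which fell from 1.18 to 0.82 after median-of-ratios scaling. Ncl fell from 1.06 to 0.68, so neither Gar1 nor Ncl was then past the rule. After scaling 1.44% of all genes were past it upward, so the 3 of 15 hold only for values as deposited.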
